A study of Mus musculus with 16 samples.

Results

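Villin 1 (Vil1), ezrin (Ezr) and the PDZ scaffold PDZK1 (Pdzk1) were followed as 3 structural genes of the enterocyte brush border. They were taken by gene name from the authors' deposited table, and 3 of its 2438 genes carried these names. The study compared RNA from the duodenal epithelium of 9 Ephb4 flox/flox mice (flox) with that of 7 mice that lacked Ephb4 in intestinal epithelial cells (KO). All mice were 8 weeks old when a high fat diet began, and the diet ran for 19 weeks. The sources used here do not name the recombinase line, the strain or the sex, and no group on another diet was analysed here. The labels name duodenal epithelium, whereas the design text names tissue of the proximal small intestine.

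The brush border is the carpet of microvilli on the apical face of absorptive enterocytes. Each microvillus has a core of bundled actin filaments, which villin bundles, caps and, at high calcium, severs. Ezrin binds the filaments with one end and membrane proteins with the other, so it ties the core to the membrane. PDZK1 carries several PDZ domains, which hold the tails of apical transporters and channels, and it binds ezrin-linked scaffolds of the same family. EphB4, the receptor deleted here, is a tyrosine kinase that binds ephrin-B2 on neighbouring cells.

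The table held only genes to which the authors had given an adjusted p under 0.05 in this same comparison, so a difference between flox and KO is a property by which all 3 genes were chosen. The values that chose them, from the authors' deposited table, were an adjusted p of 7.61e-10 for Pdzk1, 0.00292 for Vil1 and 0.0341 for Ezr. The largest adjusted p in the table was 0.0497. The authors adjusted over 16488 genes, as inferred from their p-values and adjusted p-values. Listing covered 14.8% of these genes, and 7.81% were listed as lower in KO. The differences of the 3 genes between groups are therefore described here without a test.

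Reads in listed genes ran from 3592468 to 5316273 per library, and the total depth is unknown because only listed genes were deposited. The targeted gene, Ephb4, was at 103 to 354 normalised counts in flox and at 23.3 to 84.7 in KO, so the libraries matched their labels. Of 9 markers of duodenal enterocytes, 5 were listed (Fabp1, Fabp2, Apoa1, Rbp2 and Lct), and their summed level was 475564 to 695960 normalised counts in flox and 305591 to 516761 in KO. Of 7 general epithelial markers, only Cldn7 and Krt20 were listed, both lower in KO, and Epcam, Cdh1, Krt8, Krt18 and Krt19 were not. Transcripts of pancreatic acinar cells, 17 of 18 of which were listed, summed to between 6446 and 135780 in 5 flox libraries (replicates 4, 6, 7, 9 and 10), above the highest KO library at 1576. The other 4 flox libraries lay between 332 and 443. Of all 16488 genes, 6.97% were listed as higher in KO. The table held 10 of 47 markers of lymphocytes, mast cells, myeloid cells, stroma and endothelium, each higher in KO, and 0 of the 6 myeloid ones. Their summed level was 334 to 789 in flox and 468 to 2114 in KO, and of these 10 only Lum, a stromal proteoglycan, was at 0 in any library (5 flox and 1 KO). In bulk tissue, fewer enterocytes and less RNA per enterocyte cannot be told apart.

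The DNA before a RefSeq start of each gene is shown because the later results compare how the 3 transcripts vary together. Each line gives the 250 bases before the RefSeq start (GRCm38.p6), 5′ to 3′ on the gene's own strand. The windows are chr1:74409134-74409383 (plus strand) for Vil1, chr17:6782781-6783030 (minus strand) for Ezr and chr3:96829815-96830064 (plus strand) for the first RefSeq start of Pdzk1. The RefSeq starts lie 8 bases (Vil1), 4 bases (Ezr) and 781 bases (Pdzk1) after the start of the gene in the deposited table, so the whole Pdzk1 window is inside the gene as that table bounds it. Capitals mark matches on either strand to a GC box (GGGCGG) or, in Vil1, to a CArG box, the element that serum response factor binds in many genes of the actin cytoskeleton.
Vil1: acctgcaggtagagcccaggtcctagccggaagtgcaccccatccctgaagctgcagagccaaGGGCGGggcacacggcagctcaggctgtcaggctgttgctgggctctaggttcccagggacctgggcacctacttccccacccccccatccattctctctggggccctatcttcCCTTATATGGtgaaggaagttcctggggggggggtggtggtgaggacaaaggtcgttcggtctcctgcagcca
Ezr: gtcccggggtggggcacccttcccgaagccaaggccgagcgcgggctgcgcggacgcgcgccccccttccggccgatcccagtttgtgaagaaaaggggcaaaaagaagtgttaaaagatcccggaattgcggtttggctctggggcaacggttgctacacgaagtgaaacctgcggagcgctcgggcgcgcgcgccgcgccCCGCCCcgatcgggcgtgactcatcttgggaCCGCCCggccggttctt
Pdzk1: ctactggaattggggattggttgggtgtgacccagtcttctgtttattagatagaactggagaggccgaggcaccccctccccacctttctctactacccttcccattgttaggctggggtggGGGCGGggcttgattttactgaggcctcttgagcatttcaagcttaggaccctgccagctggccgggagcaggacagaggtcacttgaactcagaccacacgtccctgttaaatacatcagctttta
The 3 windows differed in base composition. GC content was 67.2% for Ezr, 62.8% for Vil1 and 53.2% for Pdzk1, against a median of 52.4% over 32851 such windows. Over these 250 bases a GC box occurred in 32.7% of all windows and a CArG box in 1.47%. The Vil1 CArG box lay 73 to 64 bases before the start, and the Ezr and Pdzk1 windows held none. Pdzk1 had the letters CAAAGTCCA, a form of the element that the enterocyte factor HNF4 binds, at bases 15 to 23 after its first start, outside the printed window. Those letters occurred in 0.475% of all windows when 50 bases after the start were included, and not in the windows of Vil1 and Ezr. None of the 3 genes held a TATA box (TATAAA), the CDX letters TTTATG or the HNF1 element in these windows or in that of the second Pdzk1 start. The motifs were chosen by hand, and a match is a run of letters, not a shown binding site.

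Vil1 (ENSMUSG00000026175, chr1:74409376-74435559, plus strand, GRCm38) was among the most abundant genes of the table, with only 7 listed genes at a higher mean. Its flox libraries ran from 52450 to 73015 normalised counts with a median of 59324, and its KO libraries from 36391 to 50916 with a median of 49614. Every KO library was below every flox library, a pattern shown by 5.33% of the listed genes (1.93% in the opposite direction) and by 12.2% of those whose mean reached 1000. Of the KO libraries, 6 lay close together between 46595 and 50916, and KO replicate 1 stood apart at 36391. The means were 59914 ± 6409 (SD, n = 9) and 47474 ± 5150 (SD, n = 7), which is 1.26-fold lower in KO. The log2 difference was -0.34 ± 0.09 (SE) in a limma fit to all listed genes whose mean reached 10, on log2(normalised count + 1). Without KO replicate 1 it was -0.27.

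Ezr (ENSMUSG00000052397, chr17:6738041-6782784, minus strand) had nearly the same mean difference with a wider spread. Flox libraries ran from 19147 to 34223 with a median of 22186, and KO libraries from 13082 to 24006 with a median of 18260. The groups overlapped, since KO replicate 4 at 24006 was above 6 of the 9 flox libraries and KO replicate 8 at 19417 was above the lowest. The other 5 KO libraries were below every flox library. The means were 23699 ± 4364 (SD, n = 9) and 18534 ± 3194 (SD, n = 7), or 1.28-fold lower in KO. Its coefficient of variation was 18.4% in flox and 17.2% in KO, against 10.7% and 10.8% for Vil1. The log2 difference was -0.36 ± 0.12 (SE), and it was -0.29 without flox replicate 10, the highest library, and -0.27 without KO replicate 1, the lowest.

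Pdzk1 (ENSMUSG00000038298, chr3:96829284-96870926, plus strand) showed the largest difference of the 3. Flox libraries ran from 2516 to 4185 with a median of 3133, and KO libraries from 1554 to 2271 with a median of 1786. The groups did not overlap, as in 5.33% of the listed genes in this direction and 12.2% of those whose mean reached 1000. The means were 3210 ± 533 (SD, n = 9) and 1839 ± 243 (SD, n = 7), or 1.75-fold lower in KO. The log2 difference was -0.80 ± 0.10 (SE), and leaving out any 1 library kept it between -0.85 and -0.75.

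**Figure D1:**
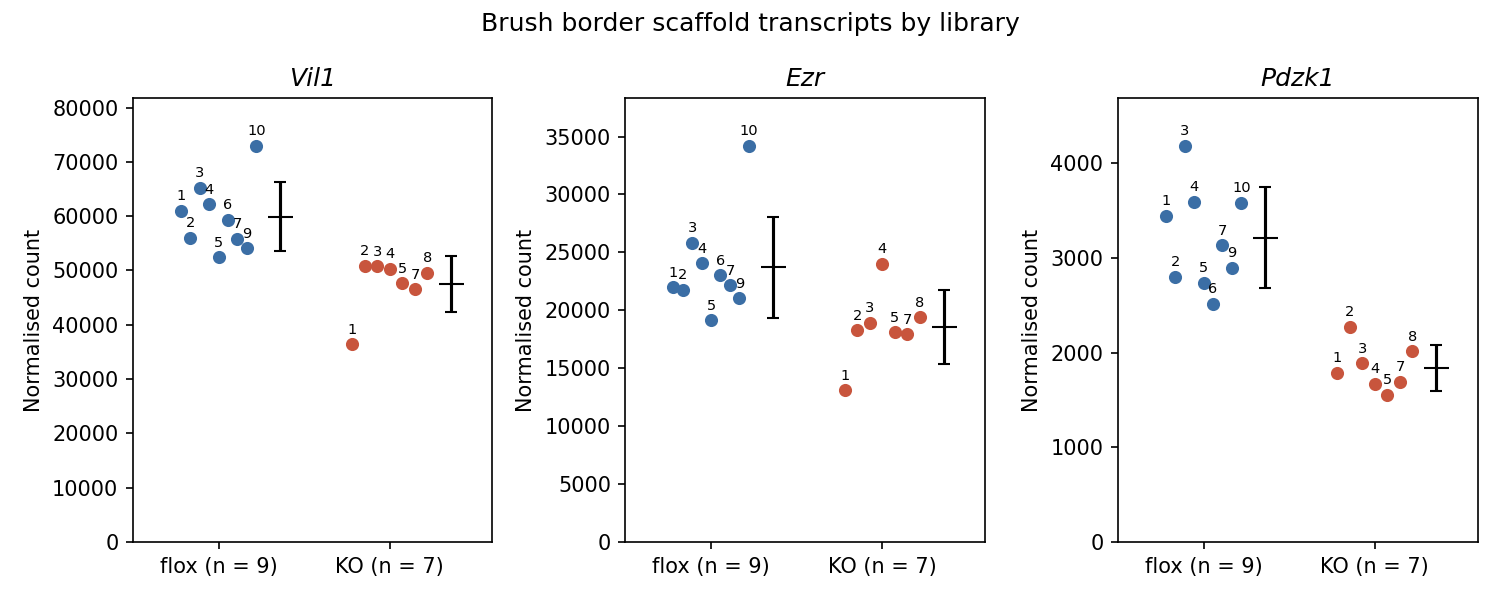
Normalised counts (linear axis from 0) of Vil1, Ezr and Pdzk1 in each library, blue for flox and red for KO, with replicate numbers beside the points and the mean with its SD as the black bar. The KO points lie below all flox points for Vil1 and Pdzk1, while KO replicate 4 lies among the flox points for Ezr.

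Among the 768 abundant genes of the table, those whose mean reached 1000, the authors' deposited table gave 712 as lower and 56 as higher, with a median log2 fold change of -0.35. The authors' log2 fold changes of Vil1 (-0.34) and Ezr (-0.35) were near that median. That of Pdzk1 (-0.80) was exceeded in the lower direction by only 22 of the 768 genes, or 2.86%. These ranks describe genes that had been selected on the same libraries.

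Expressed per kilobase of exon, the level of Vil1 was 16872 ± 1805 normalised counts per kilobase in flox (SD, n = 9) and 13369 ± 1450 in KO (SD, n = 7). Ezr was at 7203 ± 1326 and 5634 ± 971, and Pdzk1 at 903 ± 150 and 517 ± 68.4. The order Vil1, Ezr, Pdzk1 held in both groups with gaps wider than the spread over libraries. The Ezr count was 39.3% ± 3.1 of the Vil1 count in flox (SD, n = 9) and 38.9% ± 4.08 in KO (SD, n = 7), so the 2 genes stood in nearly the same proportion in both groups. Pdzk1 was 5.35% ± 0.615 of Vil1 in flox and 3.91% ± 0.607 in KO. This ratio ran from 4.24% to 6.41% in flox and from 3.26% to 4.91% in KO, with some overlap.

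Variation among libraries of the same group does not use the contrast that selected the genes, so it was tested. The test is against no relation, whereas listed genes tend to vary together. With each group centred on its own mean, the median r with Vil1 was 0.355 over 1446 listed genes. In flox, Vil1 and Ezr varied together, with a Pearson r of 0.948 and a Spearman rho of 0.917 over 9 libraries (two-sided exact permutation p of 5.51e-05 and 0.00131, adjusted over 6 relations 0.000331 and 0.00787). Flox replicate 10 was the highest library for both genes and flox replicate 5 the lowest, and without these 2 the r was 0.89 over 7 libraries. With TMM scaling on the listed genes it was 0.924. In KO the r of Vil1 with Ezr was 0.859 over 7 libraries (exact permutation p 0.0256, adjusted 0.0679) with a rho of 0.679 (exact permutation p 0.11, adjusted 0.164). That value rested on KO replicate 1, which was lowest for both genes, since without it r was 0.413. Without KO replicates 1 and 7, the libraries farthest from the Vil1 median, it was 0.263 over 5.

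For Pdzk1 with Vil1, in flox their r was 0.699 over 9 libraries (exact permutation p 0.034, adjusted 0.0679) with a rho of 0.733 (exact permutation p 0.0311, adjusted 0.0934), and r was 0.736 without flox replicates 5 and 10. In KO r was 0.253 over 7 libraries (exact permutation p 0.578, adjusted 0.694) with a rho of 0.5 (exact permutation p 0.267, adjusted 0.32), and r was 0.648 without KO replicate 1 and 0.691 without KO replicates 1 and 7. Without those libraries the r of Vil1 in KO was thus higher with Pdzk1 than with Ezr, and the difference between the relations was not tested. Ezr and Pdzk1 had an r of 0.577 in flox (n = 9, exact permutation p 0.0941, adjusted 0.141; rho 0.667, exact permutation p 0.0589, adjusted 0.118). In KO it was -0.051 (n = 7, exact permutation p 0.935, adjusted 0.935; rho 0.143, exact permutation p 0.783, adjusted 0.783). Without the libraries farthest from the Ezr median, these r values were 0.422 in flox and 0.432 in KO. With all libraries, Vil1 with Ezr in flox was the 1 relation of the 6 that passed after adjustment. Vil1 with Ezr in KO passed when KO replicate 2 was left out (r 0.896, exact permutation, adjusted p 0.0375), as did Vil1 with Pdzk1 in flox without flox replicate 6 (r 0.814, adjusted p 0.0392). Whether the relations differ between groups was not tested. Splitting flox by pancreatic transcripts leaves 5 and 4 libraries, under the 6 needed for a correlation.

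**Figure D2:**
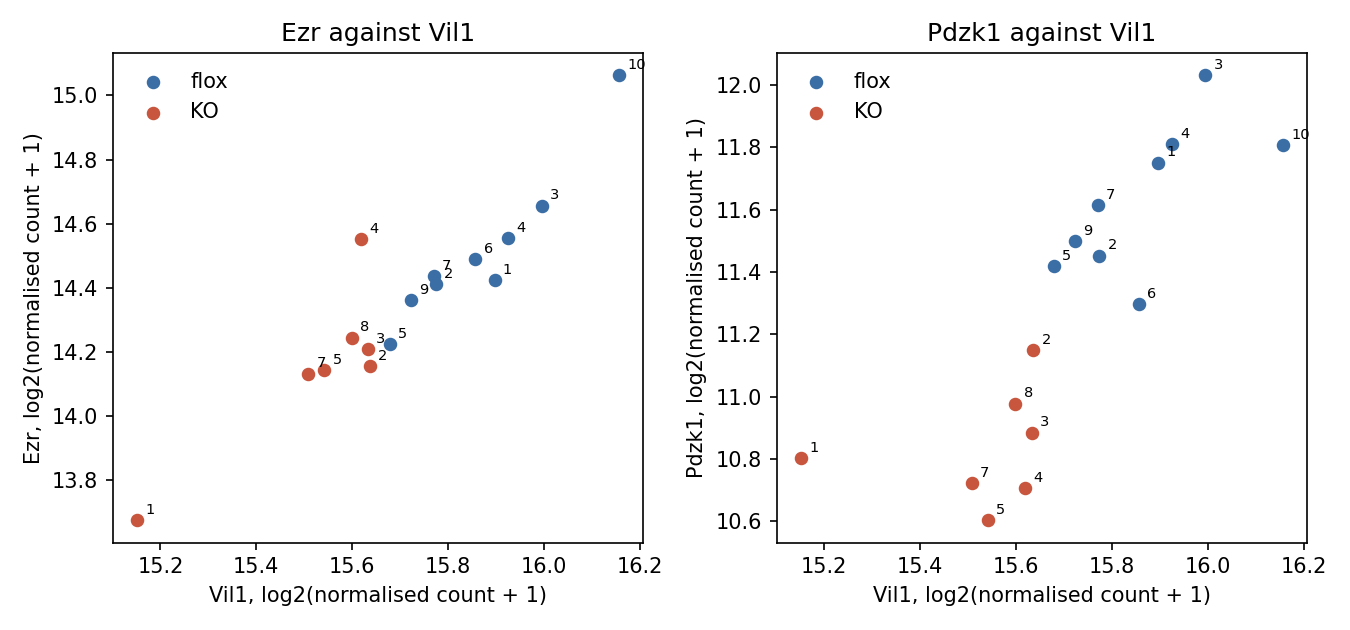
Ezr (left) and Pdzk1 (right) against Vil1 in each library, on log2(normalised count + 1) axes, blue for flox and red for KO, with replicate numbers beside the points. The flox points for Ezr rise in step with Vil1 (r = 0.948), and the KO points are spread mainly by replicate 1, at the lower left. For Pdzk1 the KO points lie below the flox points throughout.

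Over all 16 libraries with each group centred on its own mean, the listed genes most like each of the 3 were sought among 1446 others whose mean reached 200. Of these, Vil1 was the nearest to Ezr (r = 0.905), ahead of the creatine transporter Slc6a8 (0.898), Fam214b (0.885) and the glycosyltransferase B3gnt3 (0.867). The nearest to Vil1 were Tcn2, a cobalamin carrier (0.923), B3gnt3 (0.918), Atp6v0a2, a subunit of the vacuolar proton pump (0.911), and Mogat2, which makes diacylglycerol from absorbed monoacylglycerol (0.907). Ezr was not among these 4, with 5 genes closer to Vil1. The nearest to Pdzk1 were the monocarboxylate transporter Slc16a3 (0.898), Slc37a3 (0.871), the transcription factor Zbtb7b (0.869) and the receptor phosphatase Ptprf (0.864). For Pdzk1 neither other gene was near, with an r of 0.51 for Vil1 and 0.328 for Ezr. All listed genes share the scaling of each library, and the median r over the 1446 genes was 0.355 with Vil1, 0.274 with Ezr and 0.365 with Pdzk1.

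The other listed genes of the brush border and the apical domain were mostly lower in KO. In 9 lists sorted by role, with the 3 genes above left out, 26 of 97 genes were listed as lower (26.8%) and 1 as higher, against 7.81% and 6.97% of all 16488 genes. Whether the lists differ from other genes of like abundance was not tested. The median of the authors' log2 fold changes over the 27 listed genes was -0.36, beside -0.37 over all 1288 listed genes that were lower. The limma fit called 12 of the 27 listed role genes lower and none higher. Over all 2339 fitted genes it called 820 lower (35.1%) and 449 higher (19.2%), beside 1288 and 1150 that the authors listed. At an unadjusted p under 0.05 the role counts were 26 and 1, which the authors' selection on the same libraries largely set in advance. With quantile normalisation 11 of the 26 changed sign. The 12 calls became 2 with TMM scaling and 0 each with quantile normalisation, without the 5 flox libraries that held pancreatic transcripts, and when the non-epithelial score was a covariate. The median log2 difference of the 27 listed role genes, -0.36 with all libraries, was -0.37 without those 5 libraries, -0.23 with TMM, -0.22 with the covariate and about 0 with quantile normalisation. Calls over all fitted genes became 239 lower and 692 higher with TMM, against 820 and 449, and 11 in all without those 5 libraries.

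The limma p-values here and for the role lists below come from the libraries on which the authors had selected these genes. They are given as a description and are not separate evidence. Of the 768 listed genes whose mean reached 1000, 712 were lower, so a shared lower direction is common among abundant listed genes. Of the 15 other genes of the microvillar actin core, 3 were listed, all lower (20%, beside 7.81% of all 16488 genes). Espn, an actin bundler of microvilli, fell in KO (limma adjusted p 0.0309). Its mean was 6055 ± 926 normalised counts in flox (SD, n = 9) and 4543 ± 810 in KO (SD, n = 7). All 7 KO libraries were below the flox median of 5812. Lima1, an actin-binding protein, fell 1.21-fold (adjusted p 0.0375 in limma). Eps8l2, of the Eps8 family of actin regulators, was 1.27-fold lower and did not pass limma (adjusted p 0.0746). With quantile normalisation the sign of Lima1 changed. The bundlers Pls1 and Eps8, the actins Actb and Actg1, and the villin relatives Vill and Gsn were not listed.

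Of the 11 other membrane linkers and motors, 3 were listed as lower (27.3%, beside 7.81% of all 16488 genes) and 1 as higher. With quantile normalisation the 3 lower ones changed sign. Myo1a, the myosin that bridges the actin core to the microvillar membrane, fell in KO (limma adjusted p 0.0338). Its mean was 36688 ± 5444 in flox (SD, n = 9) and 28092 ± 3558 in KO (SD, n = 7). Stk10, a kinase that phosphorylates ezrin, was 1.24-fold lower and Myo1e 1.26-fold, and neither passed limma (adjusted p 0.0815 and 0.093). The ezrin relative Rdx was not listed.

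Msn (moesin), the ezrin relative that predominates in leukocytes and endothelium, was listed as higher, at 199 ± 134 in flox (SD, n = 9) and 529 ± 296 in KO (SD, n = 7), or 2.65-fold. Its KO libraries ran from 142 to 966, and KO replicates 2 and 3, with the lowest non-epithelial scores of the group, held 150 and 142. It did not pass limma (adjusted p 0.0666). When the model held that score as a covariate, the log2 difference of Msn turned from 1.29 to -0.49. The score was made only of genes listed as higher in KO, so the covariate takes up part of such a difference by construction. The part of other cells in the Msn values was not tested.

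Of 5 other genes grouped with apical PDZ scaffolds, among them the PDZK1 partner Pdzk1ip1, only Pdzd3, a relative of Pdzk1, was listed. That is 20% of the list, beside 7.81% of all 16488 genes that were listed as lower. Pdzd3 fell by 0.36 on the log2 scale (limma adjusted p 0.022). Its mean was 1459 ± 166 in flox (SD, n = 9) and 1137 ± 168 in KO (SD, n = 7). KO replicate 2, at 1487, was above the flox median of 1394. The scaffolds Slc9a3r1 and Slc9a3r2 and the PDZK1-binding membrane protein Pdzk1ip1 were not listed. Of 10 apical carriers and channels that such scaffolds hold, only the carnitine transporter Slc22a5 was listed, and it fell 1.28-fold (adjusted p 0.0327 in limma). That is 10% of the list, near the 7.81% of all 16488 genes that were listed as lower. Neither the sodium-proton exchanger Slc9a3 nor the chloride channel Cftr was listed, and the table does not tell genes that were tested and missed the threshold from untested ones.

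The adhesion complex that links microvillar tips had 2 of 6 genes listed, both lower (33.3%, beside 7.81% of all 16488 genes). Cdhr5, a protocadherin of the tips, was at 35227 ± 4603 in flox (SD, n = 9) and 27676 ± 4647 in KO (SD, n = 7). The motor of the complex, Myo7b, was 1.22-fold lower. Neither passed limma (adjusted p 0.0518 and 0.0805), and both changed sign with quantile normalisation. Their partners Cdhr2, Ush1c, Anks4b and Calml4 were not listed.

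Of 11 genes of the terminal web and the keratins, 4 were listed, all lower (36.4%, beside 7.81% of all 16488 genes). The nonmuscle myosin heavy chains Myh14 and Myh9 fell 1.38-fold and 1.25-fold, with adjusted p of 0.0415 and 0.0416 in limma. Actn4, which crosslinks actin, was 1.27-fold lower and Krt20, a keratin of differentiated enterocytes, 1.32-fold, without passing limma (adjusted p 0.0577 and 0.0935). Of the 4, Myh9, Actn4 and Krt20 changed sign with quantile normalisation.

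Of 11 genes of apical membrane trafficking 3 were listed, all lower (27.3%, beside 7.81% of all genes), of which only Vamp8 passed limma. These were the vesicle protein Vamp8 (1.28-fold, adjusted p 0.0449 in limma), the syntaxin-binding protein Stxbp2 (1.20-fold) and the small GTPase Rab8a (1.18-fold), of which the last 2 changed sign with quantile normalisation. Of 12 transcription factors of the enterocyte only Cdx2, which sets intestinal identity, was listed, and it fell 1.24-fold (adjusted p 0.0333 in limma). That is 8.33% of the list, near the 7.81% of all 16488 genes that were listed as lower. Hnf4a was not listed. Among 16 hydrolases anchored in the brush border 8 were listed as lower (50%, beside 7.81% of all 16488 genes). They ranged from 1.31-fold for Ggt1 to 1.56-fold for Ace, and 3 of them (Treh, Ace and Lct) passed limma. These 8 kept their sign with quantile normalisation.

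**Figure D3:**
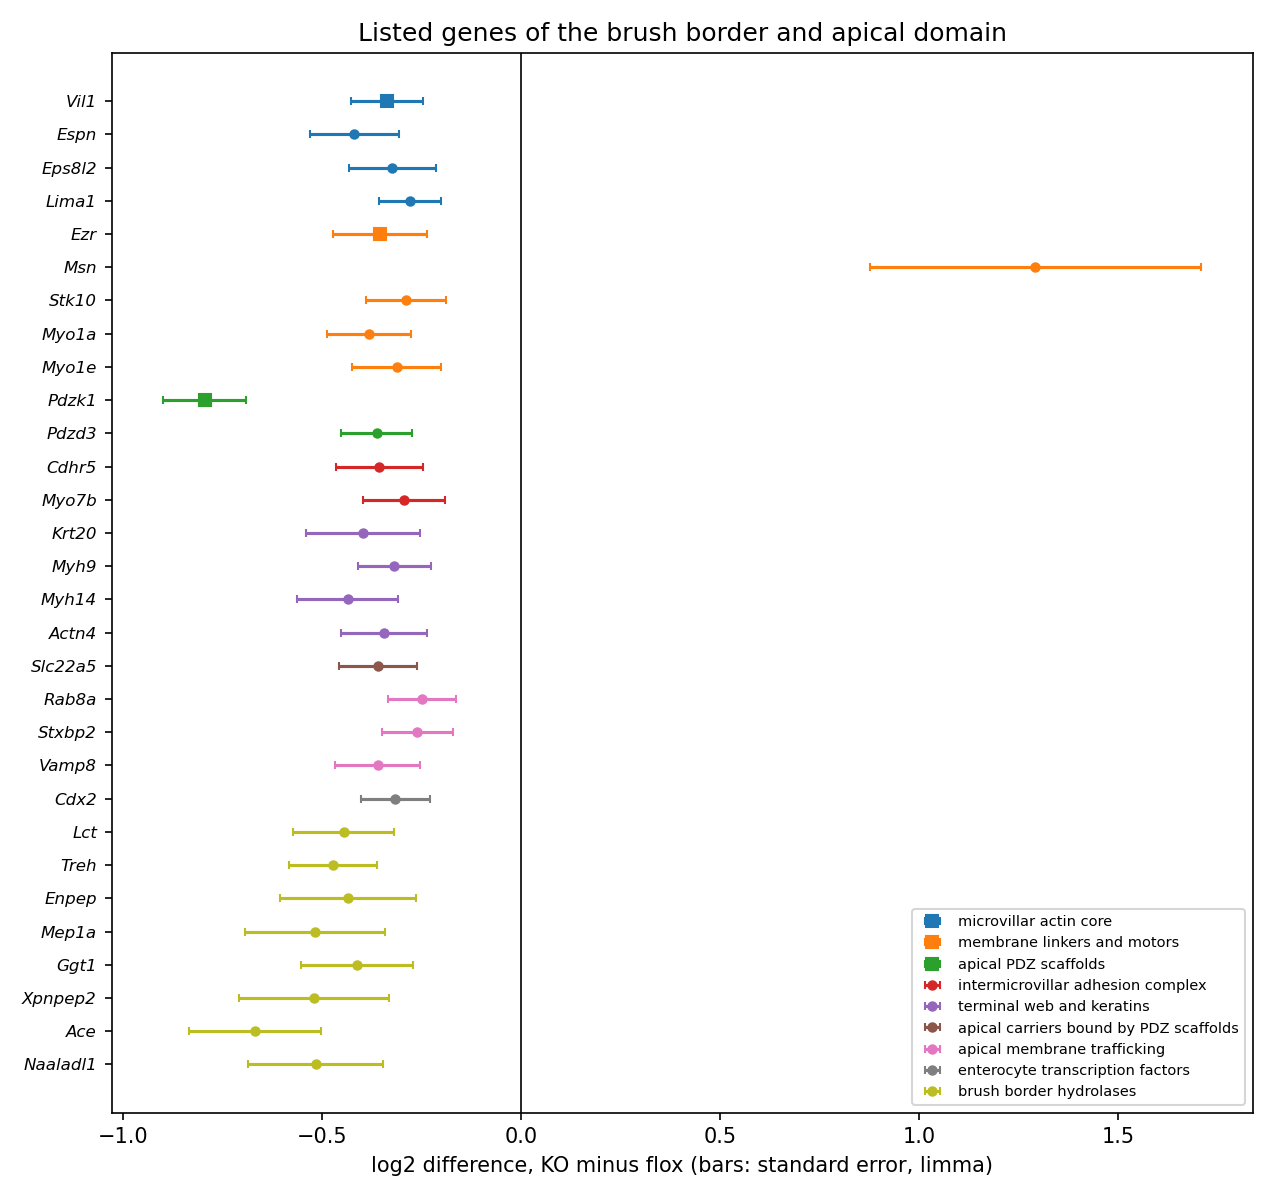
Log2 difference of KO minus flox (horizontal axis, bars give the standard error from limma) for the 30 listed genes of the 9 role lists, coloured by role, with squares for Vil1, Ezr and Pdzk1. Pdzk1 (-0.80) lies farther from 0 than every other gene that was lower, and Msn lies alone on the right at 1.29.

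The non-epithelial score, which is the mean log2(normalised count + 1) of the 10 listed markers of other cells, was 4.28 to 5.55 in flox and 4.91 to 6.97 in KO. Within groups all 6 r values of the 3 genes with this score were negative, but with all libraries no relation passed after adjustment over 12. Vil1 in KO passed without KO replicate 8 (r -0.855, exact permutation, adjusted p 0.0333), and Ezr in KO turned to 0.227 without KO replicate 1. The r of Vil1 with the score was -0.565 in flox (n = 9, exact permutation p 0.114, adjusted 0.224) and -0.788 in KO (n = 7, exact permutation p 0.00516, adjusted 0.0619), with rho of -0.6 (exact permutation p 0.0968, adjusted 0.166) and -0.857 (exact permutation p 0.0238, adjusted 0.13). Without the 2 libraries farthest from the median score, r was -0.486 in flox and -0.949 in KO. For Pdzk1 it was -0.673 in flox (n = 9, exact permutation p 0.044, adjusted 0.106) and -0.518 in KO (n = 7, exact permutation p 0.236, adjusted 0.314), with rho of -0.717 (exact permutation p 0.0369, adjusted 0.13) and -0.286 (exact permutation p 0.556, adjusted 0.606), and without 2 libraries r was -0.719 and 0.328. Ezr had an r of -0.518 in flox (n = 9, exact permutation p 0.152, adjusted 0.228) and -0.471 in KO (n = 7, exact permutation p 0.262, adjusted 0.314), with rho of -0.7 (exact permutation p 0.0433, adjusted 0.13) and -0.393 (exact permutation p 0.396, adjusted 0.475), and without 2 libraries r was -0.513 and -0.873.

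The proliferation score, made in the same way from 9 listed markers of cycling cells, was 6.01 to 7.54 in flox and 7.22 to 8.32 in KO. Its r with the 3 genes ran from -0.694 to -0.282 in flox and from -0.817 to -0.239 in KO, with rho from -0.717 to -0.45 and from -0.714 to -0.036. The smallest adjusted p of these relations was 0.106 for r and 0.13 for rho (exact permutation, n = 9 and n = 7). Both Vil1 and Ezr in KO passed without KO replicate 3 (r -0.965 and -0.918, exact permutation, adjusted p 0.0417 for each). For Ezr and Vil1 in KO the r values of -0.817 and -0.761 were -0.073 and -0.155 without KO replicates 1 and 4.

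KO replicates 2 and 3 had non-epithelial scores of 4.91 and 5.09, inside the flox range but above the flox median of 4.76. Only flox replicate 2, at 5.55, scored above KO replicate 3. The proliferation score of KO replicate 3, 7.99, was above the highest flox value of 7.54. The Vil1 levels of KO replicates 2 and 3 were 50916 and 50800, the highest of the KO group and below the lowest flox library at 52450. Their Ezr levels of 18260 and 18933 were below the lowest flox library at 19147. Their Pdzk1 levels of 2271 and 1890 were below the lowest flox library at 2516. For Vil1 and Pdzk1 this held for every KO library, so it is not particular to KO replicates 2 and 3. With the score as a covariate the log2 difference was -0.10 ± 0.12 (SE) for Vil1, -0.10 ± 0.16 for Ezr and -0.54 ± 0.14 for Pdzk1. The score was itself higher in KO and was made of genes selected as different, so the covariate takes up part of the group difference, and the part of other cells in the result was not tested further.

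The 5 flox libraries with pancreatic transcripts differed from the other 4 by less than the SD within either set. Vil1 was at 60894 ± 7466 in the 5 (SD, n = 5) and 58688 ± 5622 in the 4 (SD, n = 4), Ezr at 24907 ± 5322 and 22188 ± 2746, and Pdzk1 at 3144 ± 461 and 3293 ± 676. Against these 4 alone the log2 difference of KO was -0.31 for Vil1, -0.27 for Ezr and -0.83 for Pdzk1.

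**Figure D4:**
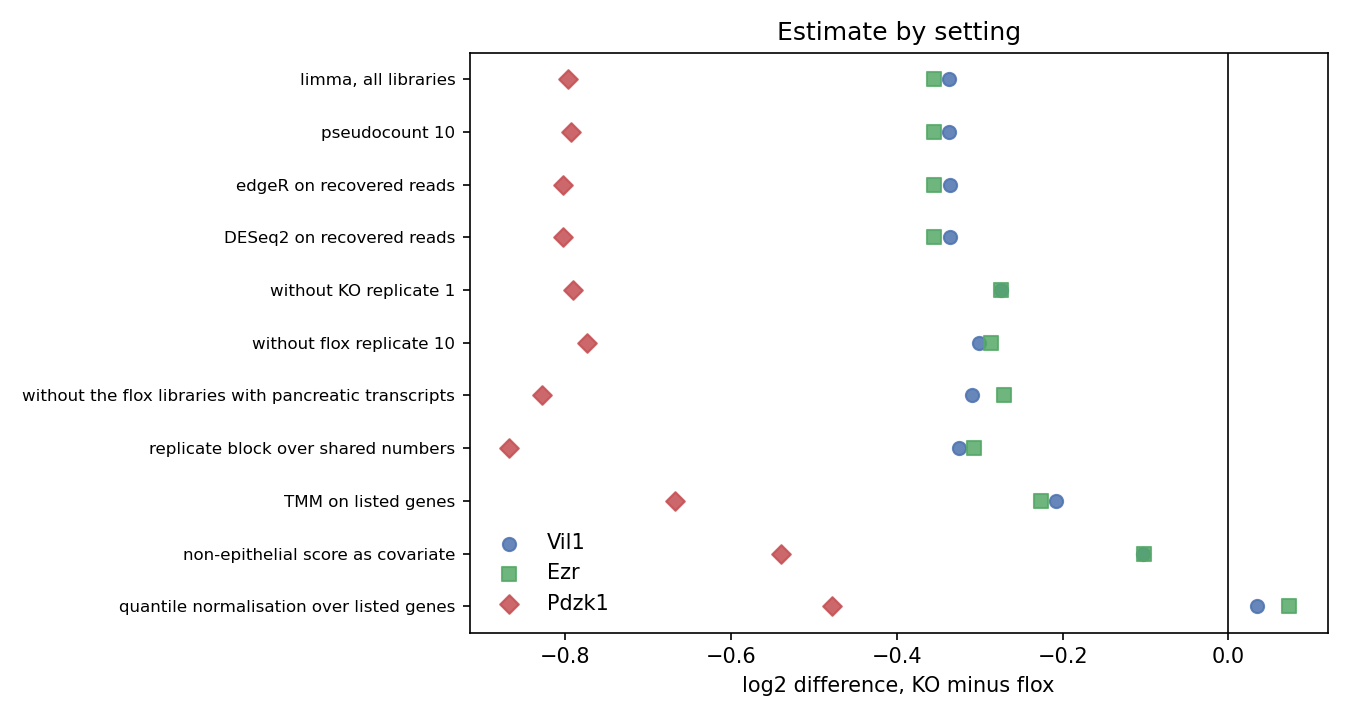
Log2 difference of KO minus flox (horizontal axis) of Vil1 (circles), Ezr (squares) and Pdzk1 (diamonds) under each way of processing (rows). Pdzk1 stays between -0.87 and -0.48 in the rows shown, whereas Vil1 and Ezr move to -0.10 when the non-epithelial score is a covariate and above 0 with quantile normalisation.

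TMM on the listed genes shifted the median log2 difference of all fitted genes by 0.13 and gave -0.21 for Vil1, -0.23 for Ezr and -0.67 for Pdzk1. Quantile normalisation over the listed genes shifted that median by 0.25 and gave 0.03 for Vil1, 0.07 for Ezr and -0.48 for Pdzk1. Abundant listed genes were mostly lower in KO, and giving all libraries the same distribution reduces such differences by construction.

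Each of the 3 genes overlaps a neighbour on the opposite strand in the GENCODE M21 annotation, and the library kit named in the labels is not stated to keep strand. The overlap is 49 bases for Vil1 with Usp37 and 4 bases for Ezr with Sytl3. Pdzk1 overlaps Cd160 by 68 bases, Gpr89 by 2646 and the antisense transcript 4930442L01Rik by 2271. None of these 5 neighbours was listed. Whether reads from them entered the Pdzk1 count was not tested.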

How the data were processed

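Poly-A RNA was sequenced from 16 libraries of duodenal epithelium, 9 flox and 7 KO, and the replicate numbers are those in the sample titles. The submitters' processing notes name GRCm38 (mm10) and the programs DESeq2 1.20.0, HISAT2 2.0.5 and featureCounts 1.5.0-p3, without settings. The deposited signal for each library is a normalised read count. In every library, 100% of nonzero values were whole multiples of the value of 1 read (tolerance 0.0001 reads), with size factors from 0.878 to 1.38, so read counts were recovered from the authors' deposited values. The deposited table also holds the authors' log2 fold change and the authors' p-values. The number of genes that their adjustment covers, 16488, was inferred from the p-values and adjusted p-values of the listed genes. It lists 2438 genes, all with an adjusted p under 0.05.

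The 3 genes, the 9 role lists, the 10 marker lists and the tests were chosen with earlier results of these data known. Named genes are Ephb4, the 3 genes, every listed gene of the role lists, and the 4 listed genes most correlated with each of the 3.

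limma 3.58.1 (trend, robust) was fitted to log2(normalised count + 1) of the 2339 listed genes whose mean reached 10. Benjamini-Hochberg adjustment was over 16488 genes, with each unlisted gene given a p of 1. On the log2(value + pseudocount) scale the change of low genes is understated. limma called 1269 genes, edgeR 4.0.16 on the recovered reads called 1315 and DESeq2 1.42.0 called 2112, which nearly repeats the authors' selection. The 3 programs were tested on simulated data. Alternatives were a pseudocount of 10, no filter on low values, TMM or quantile normalisation over the listed genes, leaving out libraries, the non-epithelial score as a covariate and a replicate block. Correlations within groups used exact permutation tests over libraries. Replicate numbers are shared by the groups for 6 numbers, and the labels do not say that a number marks a shared mouse, litter or day.

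No label says that each library is a separate mouse, although there are as many libraries as mice in each group, so p-values measure the spread between these libraries. No 2 libraries of a group were duplicates (smallest chi-square per degree of freedom 16.7). Promoter windows are from RefSeq (GRCm38.p6), in which all 3 genes matched by symbol.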

Additional observations from a re-analysis of the deposited data

Results flagged for a closer look

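Of 82 groups of libraries (41 named genes in flox and in KO), 9 held a library whose gap to its nearest neighbour was a large share of the group's range, where chance gives about 1 in 20. KO replicate 1 accounted for 4 of them. It was the lowest KO library for Vil1 at 36391 normalised counts (nearest 46595), for Myo1a at 20734 (nearest 26579) and for Lima1 at 5346 (nearest 6720), and the highest for Ephb4 at 84.7 (nearest 37.3). The same library had the highest non-epithelial score (6.97) and the highest proliferation score (8.32) of all 16, and its part in these values was not tested.

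Flox replicate 10 was the highest library for Ezr at 34223 (nearest 25818), and for Slc6a8 at 38061 (nearest 26894), and it also held the most pancreatic transcripts, at 135780 summed normalised counts. Flox replicate 2 was the highest for Msn at 548 (nearest 209) and had the highest non-epithelial score of the flox group at 5.55. Flox replicate 4 was the highest for Stxbp2 at 3837 (nearest 3158), and flox replicate 3 was the highest for Cdx2 at 3549 (nearest 2962).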

How the results depend on the processing

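Of 25 alternatives, 16 of which left out 1 library, 23 moved each of the 3 log2 differences by less than 1 SD between libraries. That SD was 0.16 for Vil1, 0.25 for Ezr and 0.22 for Pdzk1, beside differences of -0.34, -0.36 and -0.80, so it is a wide margin for Vil1 and Ezr. A pseudocount of 10, no filter, edgeR and DESeq2 kept the same libraries and scaling, so they could move the differences little (99.6% to 101% kept). TMM, counted among the 23, kept 61.9% of the Vil1 difference, 63.8% of that of Ezr and 83.9% of that of Pdzk1. The 2 alternatives that moved them further were quantile normalisation (0.035 for Vil1 and 0.072 for Ezr, both of opposite sign, and -0.48 for Pdzk1) and the non-epithelial score as a covariate (-0.10, -0.10 and -0.54). Leaving out 1 library gave -0.36 to -0.27 for Vil1, -0.42 to -0.27 for Ezr and -0.85 to -0.75 for Pdzk1. Why the 2 settings differ beyond their construction was not tested.

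Of the role genes, the 12 that limma called lower became 2 with TMM, 0 with quantile normalisation, 0 with the covariate, 0 without the 5 flox libraries with pancreatic transcripts and 26 in DESeq2, and edgeR called 11. At an unadjusted p under 0.05 the counts with 0 calls were 1, 2 and 21. The authors had selected these genes on the same libraries, which favours small p-values. Leaving out 1 library gave 2 to 16 lower, with 3, 7 and 4 without flox replicates 3, 4 and 10, and 4, 5, 4 and 2 without KO replicates 1, 4, 5 and 7. The count higher was 0 with limma and 1 in edgeR and DESeq2, and 0 to 1 when 1 library was left out. Over all fitted genes the split of 820 lower and 449 higher became 239 and 692 with TMM, 165 and 192 with quantile normalisation, 6 and 5 without those flox libraries and 4 and 3 with the covariate.

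Numbers shared by the groups gave no sign of pairing the libraries, although 6 numbers are too few to settle it. The correlations of deviations between libraries of the same number ran from -0.431 to 0.371. Only 1 of 6 flox libraries was closest to its own number. With the replicate block over these 12 libraries the differences were -0.32, -0.31 and -0.87, and 0 role genes were called either way (25 lower and 0 higher at an unadjusted p under 0.05), with 4 lower and 5 higher of all.

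Within flox, r of Vil1 with Ezr stayed between 0.918 and 0.973 when 1 library was left out, and r of Vil1 with Pdzk1 between 0.65 and 0.814. Within KO, r of Vil1 with Ezr was 0.413 to 0.973 and r of Vil1 with Pdzk1 0.069 to 0.648, and the latter was -0.0502 with TMM. Ezr with Pdzk1 ran from -0.203 to 0.221 in KO and from 0.505 to 0.692 in flox. Ezr with the non-epithelial score ran from -0.682 to 0.227 in KO, and Pdzk1 with the proliferation score from -0.467 to 0.077. Without the flox libraries with pancreatic transcripts only 4 flox libraries remained, so no correlation was computed. Leaving out 1 library added 5 calls among the relations (given with the relations above) and ended none.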
